A study of Mus musculus with 6 samples.

Results

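The genes described here are the aminoacyl-tRNA synthetases and a set of genes tied to the transcription factor ATF4, chosen by name from a fixed list of 35 symbols. All 35 were rows of the deposited table of 41669 gene symbols. They comprised 20 cytosolic tRNA synthetase genes, 10 genes of amino acid and one-carbon synthesis, and 5 genes of ATF4 itself and its stress targets. The libraries came from B cells of the spleens of 3 females and 3 males of the NZB/W F1 hybrid, whose lupus-like disease was at a late stage in every mouse. No ages are given in the sources used here. Every culture, female and male alike, had received CpG, DNA that activates Toll-like receptor 9, for 24 h, so no unstimulated cells were compared. The cells were selected on a column, and each library came from a different mouse.

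Aminoacyl-tRNA synthetases join each amino acid to its tRNA and so supply the ribosome. Several of them sit in a multi-synthetase complex held together by scaffold proteins. ATF4 is translated when kinases that sense amino acid shortage, haem loss, viral RNA or misfolded protein phosphorylate eIF2 alpha, and it then switches on genes for amino acid uptake, amino acid synthesis, one-carbon metabolism and many of the same synthetases. Activated B cells need both branches, since they grow, divide and make antibody, and one-carbon units feed purine and thymidylate synthesis.

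Library totals ran from 24089561 to 35659883 estimated counts, so the floor of 3 counts lay between 0.0841 and 0.125 CPM. CPM are estimated counts scaled so that every column has the same total, and the floor covers counting error only, not differences between mice. Xist, at 5785 to 7149 CPM in females and 1.11 to 2.92 in males, and the Y-linked Ddx3y, at 0.353 to 1.20 and 132 to 261 CPM, matched the labelled sex in all 6 libraries. Female replicate 3 stood apart on the first principal component (94.2, against -47.9 to 6.66 in the other 5), so results that rest on it are given with and without it. Of the B cell markers, Ms4a1 (1424 to 1658 CPM) and Pax5 (497 to 591 CPM) were high in every library, while Cd79a, at 4.61 to 29.4 CPM, was low for a B cell receptor subunit. The 7 T and NK cell markers summed to 5.69 to 10.8 CPM in females and 2.96 to 6.58 in males, with Cd3e at 0 in 5 libraries and Ncr1 at 0 in all 6. The 7 myeloid markers summed were at 4.45 to 9.91 CPM in females and 1.74 to 2.81 in males. The 5 plasma cell markers summed were at 269 to 455 CPM in females and 247 to 293 in males, with Igj, the joining chain gene, at 37.7 to 48.4 and 17.0 to 18.3 CPM. Prdm1 was also higher in every female than in any male, while Sdc1, Xbp1 and Irf4 overlapped between the sexes. In bulk RNA, fewer cells of a type and less RNA per cell cannot be told apart, and the part these cells played in the values below was not tested.

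The 20 synthetase genes differed far more from each other than between the sexes. Per kb of the longest annotated transcript, the mean level over 6 libraries was highest for Dars, the aspartyl enzyme (239 CPM per kb), and Farsb (147.5 CPM per kb), and lowest for Farsa (2.63) and Qars, the glutaminyl enzyme (1.02). Farsa and Farsb encode the alpha and beta subunits of 1 enzyme, phenylalanyl-tRNA synthetase, yet their levels per kb were far apart in every library. Farsb had 290, 308 and 288 CPM in female replicates 1 to 3 and 304, 307 and 305 CPM in male replicates 1 to 3. Farsa had 15.6, 7.93 and 2.17 CPM in the females and 10.5, 8.71 and 7.84 CPM in the males. The sexes overlapped for both subunits, and Farsb was nearly level across mice while Farsa varied several-fold among the females. The serine hydroxymethyltransferase genes showed a like gap: Shmt1, the cytosolic form, was at 27.8 CPM per kb, and Shmt2, the mitochondrial form, at 0.747.

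Level and base composition went together across these genes. Among the 35, log2 CPM per kb had a Pearson correlation of -0.79 (Spearman -0.79) with the GC content of the longest transcript. Over the 12022 tested genes with a matched transcript it was -0.34 (Spearman -0.35). These correlations are across genes that share the same 6 libraries, and they are given as a description. Dars, the highest synthetase gene, had a GC content of 41.2% and Vars, a low one at 3.40 CPM per kb, 60.9%. Farsa and Qars, at 49.4% and 50.6%, were near the synthetase median of 49.8%, while Shmt2 was at 57.4%. Gars and Hars, at a like GC content of 50.3% and 50.4%, had 74.1 and 30.6 CPM per kb. The part of GC content in the order of levels, those of Farsa, Qars and Shmt2 included, was not tested.

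**Figure D1:**
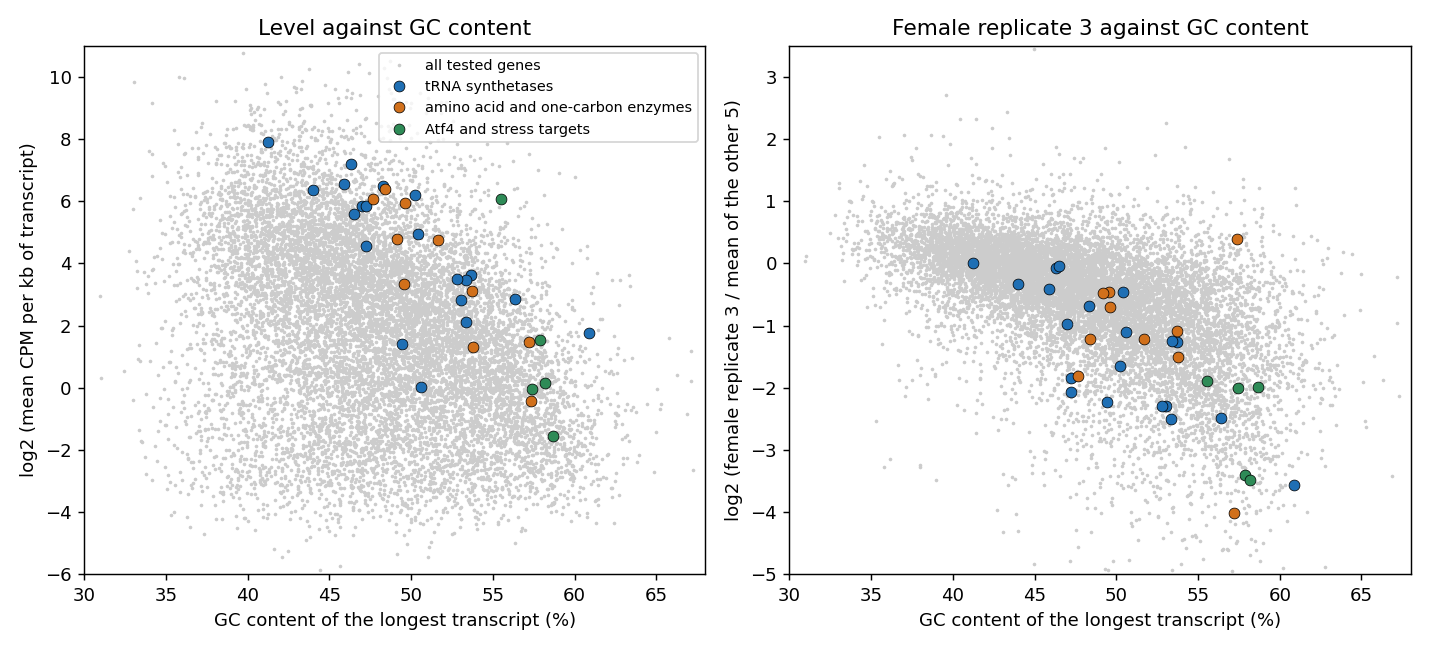
Each point is a gene, placed by the GC content of its longest transcript in %; grey points are all tested genes and coloured points the 35 genes by group. Left, log2 mean CPM per kb; right, log2 of female replicate 3 over the mean of the other 5 libraries. The 35 genes slope down in both panels (Pearson -0.79 and -0.65), and 23 and 50 grey genes lie outside the axes.

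Female replicate 3 had the lowest value of the 6 libraries for 32 of the 35 genes, against 51.4% of all tested genes. How far it lay below the others differed between genes. The mean of the other 5 libraries was 16.2-fold its value for Phgdh, 11.9-fold for Vars, 11.2-fold for Trib3 and 10.6-fold for Ddit4, but 1.05-fold for Farsb, 1.03-fold for Tars and 0.999-fold for Dars. Shmt2 went the other way at 0.765-fold. On the log2 scale the ratio of this library to the others had a median of -1.26 over the synthetases, -1.15 over the synthesis enzymes and -0.41 over all tested genes, and it ran from -3.49 to -1.89 over the 5 ATF4 and stress genes. Across the 35 genes it had a Pearson correlation of -0.65 with GC content, and of -0.41 across all tested genes. By rank (Spearman) these were -0.62 and -0.58. Among the 20 synthetases the Pearson correlation was -0.79 (Spearman -0.78), and among the 10 synthesis enzymes -0.24 (Spearman 0.09). With 1 such mouse, the animal and its library preparation cannot be told apart.

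No member was called between females and males. With edgeR's quasi-likelihood test over 12172 genes, 0 of 35 members had an adjusted p under 0.05, and all lay at 0.999 or above. The same comparison called 0.0575% of all tested genes. DESeq2 called 0 of the 35 against 0.192% of the 16635 genes to which it gave an adjusted p. By limma-voom with sample quality weights 0 of the 35 were called, against 1.88% of the 12172 genes. Those weights were 0.45, 4.00 and 0.20 for female replicates 1 to 3 and 1.76, 0.52 and 3.07 for male replicates 1 to 3. The female side of that fit thus leaned on female replicate 2. At an unadjusted edgeR p under 0.05 there were 5 members, Cars, Psat1, Mthfd2, Aldh18a1 and Chac1. All 5 were lower in females, as were 1.23% of all tested genes at that threshold. The number of members at that threshold, in either direction, was 11 without female replicate 1, 3 without female replicate 2 or 3, 1 without male replicate 1 or 3 and 0 without male replicate 2. Over all 12172 tested genes it was 352 with every library and 1474 without female replicate 1. It was 212 and 480 without female replicates 2 and 3, and from 209 to 232 without a male.

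The groups were nevertheless not alike in their medians. The median log2 fold change (female over male) was -0.18 over the 20 synthetases, -0.35 over the 10 synthesis enzymes and -0.59 over the 5 ATF4 and stress genes, against 0.00 over all tested genes. Negative values were found for 14 of 20, 8 of 10 and 5 of 5 members. For the synthetases this direction hung on scaling and on 1 library: 19 of 20 were negative with library totals only, a scaling that lowered the median of all genes by 0.12, and 9 of 20 without female replicate 3, with a median of 0.01. Without that library 8 of 10 synthesis enzymes had negative values, with a median of -0.23; Phgdh turned positive and Shmt2 negative, so 7 of the 8 were the same genes. All 5 stress genes were negative without it, with a median of -0.24. Without female replicate 1 the 3 medians were -0.52, -0.57 and -1.05. Once a trend in transcript length and GC content was taken out they were -0.16, -0.25 and -0.66. The difference between groups was not tested.

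**Figure D2:**
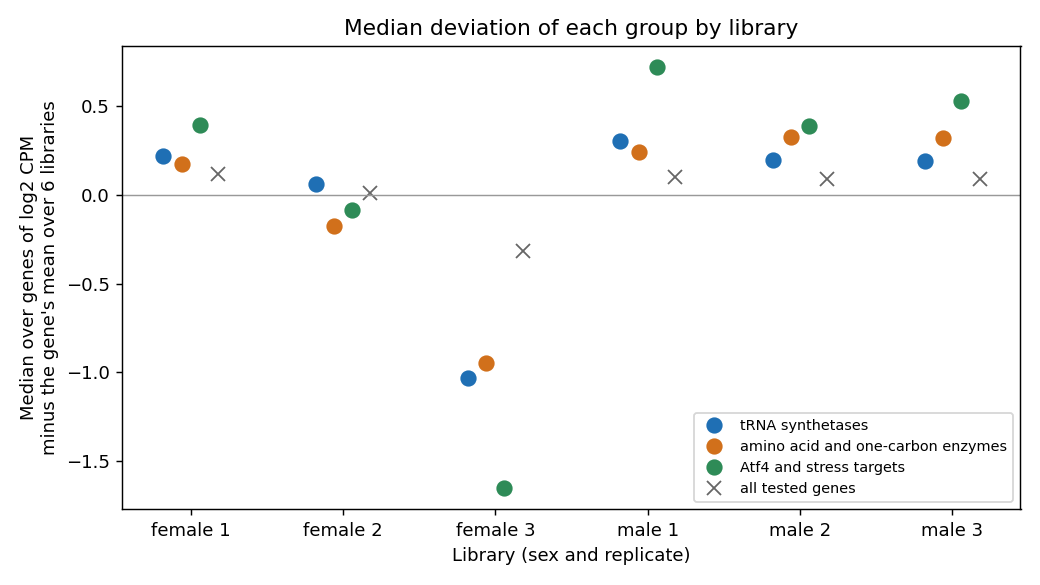
For each library (x axis) the median over the genes of a group of log2 CPM minus that gene's mean over the 6 libraries (y axis); colours mark the 3 groups and crosses all tested genes. Female replicate 3 is lowest in each group, at -1.03 for the synthetases, -0.95 for the synthesis enzymes and -1.66 for the ATF4 and stress genes, and at -0.31 for all tested genes.

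Genes in which every female lay below every male were counted as well. In CPM of the column total this held for 2 of 20 synthetases, 5 of 10 synthesis enzymes and 1 of 5 stress genes, 8 of 35 in all (Cars and Nars; Asns, Psat1, Psph, Mthfd2 and Aldh18a1; Chac1), and for 7.55% of all tested genes. On this scale the synthetase share was near that of all tested genes, and the stress genes, with the lowest median, had a lower share than the synthesis enzymes. Overlap of single genes is given below in CPM of the column total unless stated otherwise. Females 1 and 2 alone lay below all males for the same counts, and for 10.8% of tested genes. With TMM-scaled CPM the counts were 3 of 20, 4 of 10 and 3 of 5, against 4.61% of genes. This reversed the order of the stress genes and the synthesis enzymes. Without female replicate 1 the counts in CPM of the column total were 8, 9 and 5, against 28.8% of genes.

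Summed levels set the groups against each other within a library. The synthetases summed to 3142, 3018 and 2162 CPM in female replicates 1 to 3 and to 3078, 3329 and 3078 CPM in the males. The synthesis enzymes summed to 807, 645 and 385 CPM in the females and to 837, 882 and 873 CPM in the males. The synthetase sums of females 1 and 2 lay within or near the male range, whereas every female sum of synthesis enzymes lay below every male one. Per 100 CPM of synthetases there were 25.7, 21.4 and 17.8 CPM of synthesis enzymes in the females and 27.2, 26.5 and 28.4 in the males. This ratio did not overlap between the sexes, also with female replicate 3 left aside. It rests on few genes, since Dars, Eprs, Iars, Farsb, Lars and Tars held 71.0% of the synthetase sum. On the other side Psat1, Asns and Mthfd2 had the highest mean levels of the synthesis enzymes (220, 135 and 129 CPM). Each of these was itself lower in every female than in any male. When each gene counts once, the gap between the median deviations of the 2 groups overlapped between the sexes, at 0.24 in female 2 and -0.09 in female 3 and from -0.13 to 0.06 in the males.

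Among the synthetases, Cars, the cysteinyl enzyme (chromosome 7: 143557230 to 143600090, GRCm38), had the smallest p. It had 38.2, 33.9 and 18.5 CPM in the females and 46.3, 56.4 and 47.7 CPM in the males. All 3 females lay below all 3 males, and the log2 fold change was -0.63 ± 0.21 (SE; edgeR adjusted p = 0.999), or -0.46 without female replicate 3. Nars, the asparaginyl enzyme, had 165, 155 and 43.1 CPM in the females and 205, 198 and 180 CPM in the males. It too did not overlap, with a log2 fold change of -0.61 ± 0.37 that was -0.26 without female replicate 3.

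Gars, the glycyl enzyme of cytosol and mitochondria, had 204, 162 and 63.5 CPM in the females and 204, 220 and 205 CPM in the males. Mars, the methionyl enzyme, had 32.6, 38.4 and 15.8 CPM in the females and 44.9, 29.96 and 42.4 CPM in the males. In CPM of the column total both overlapped between the sexes, with female replicate 3 the lowest. With TMM-scaled CPM Gars did not overlap. Their log2 fold changes were -0.47 ± 0.30 and -0.34 ± 0.28, or -0.18 and -0.11 without female replicate 3. Iars, the isoleucyl enzyme, had 411, 411 and 265 CPM in the females and 394, 502 and 419 CPM in the males, a difference of -0.16 ± 0.16 on the log2 scale (-0.07 without that library). Dars had 525, 541 and 520 CPM in the females and 526, 503 and 502 CPM in the males (0.20 ± 0.15; 0.08 without female replicate 3), and was the synthetase whose level in female replicate 3 lay nearest to the mean of the other libraries. Qars had 3.48, 3.42 and 1.60 CPM in the females and 4.08, 3.14 and 3.12 CPM in the males (-0.19 ± 0.34; 0.02 without female replicate 3), so it was low in every mouse.

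The 8 synthetases of the multi-synthetase complex, Dars, Eprs, Iars, Kars, Lars, Mars, Qars and Rars, had a median log2 fold change of -0.17, with 5 of 8 negative. The 12 others had a median of -0.37, with 9 of 12 negative. Without female replicate 3 the medians were 0.03 and 0.00. Eprs, which charges both glutamate and proline, averaged 446 ± 58.7 CPM over the females and 476 ± 80.1 CPM over the males (mean ± SD, n = 3 each), and Lars, whose product also signals leucine to mTORC1, 206 ± 69.7 and 248.8 ± 17.8 CPM. Kars, Rars, Aars, Hars, Sars, Tars, Vars, Wars and Yars charge lysine, arginine, alanine, histidine, serine, threonine, valine, tryptophan and tyrosine. Their log2 fold changes ran from -0.46 for Aars to 0.06 for Hars and Rars, all with edgeR adjusted p = 0.999. That range rested on female replicate 3: without it Aars was at -0.05, Kars, Sars, Vars, Wars and Yars turned positive (0.01 to 0.37) and Tars negative (-0.09). Vars showed the widest spread, with 27.5, 11.1 and 1.40 CPM in the females and 20.9, 9.58 and 14.0 CPM in the males.

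Of the scaffold genes of the complex, Aimp1 and Aimp2 had log2 fold changes of -0.09 and -0.34, which turned to 0.27 and 0.09 without female replicate 3. Eef1e1, the third scaffold gene, had 142, 202 and 261 CPM in the females and 146, 154 and 151 CPM in the males. Of the 3 it was the one in which female replicate 3 was the highest library (0.61 ± 0.29, edgeR adjusted p = 0.999; 0.23 without that library).

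**Figure D3:**
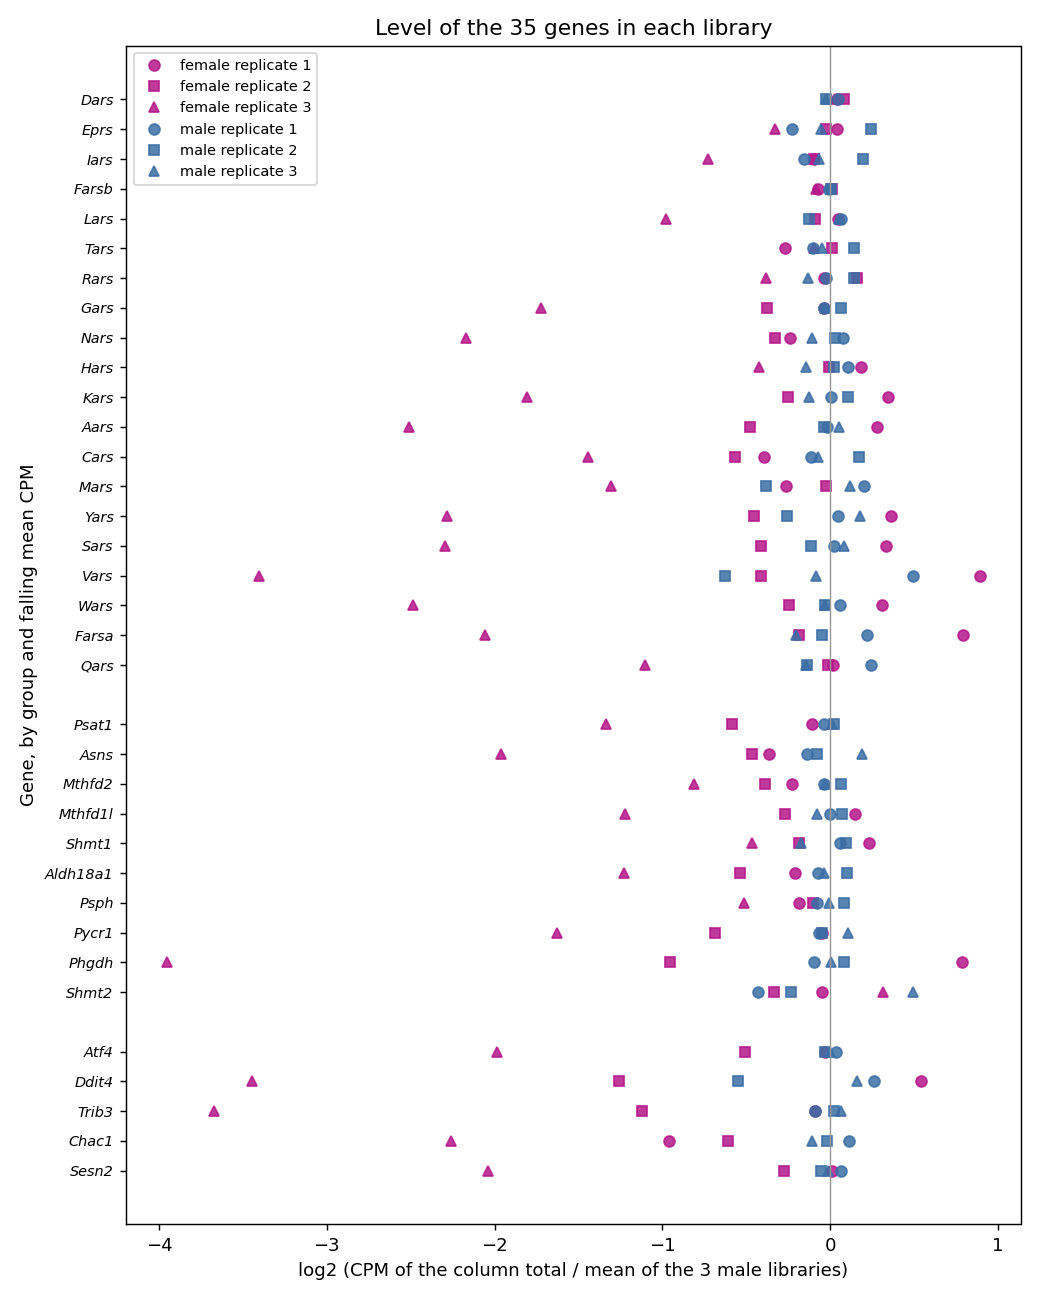
Each row is 1 of the 35 genes in the 3 groups (synthetases, synthesis enzymes, ATF4 and stress genes); the x axis gives log2 of its CPM over the mean of the 3 male libraries, with 1 symbol per library. Female replicate 3 lies farthest left in 32 of 35 rows, and the male symbols scatter about 0.

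The amino acid synthesis enzymes were lower in females in all 6 genes, and the 4 one-carbon enzymes were not of 1 direction. The 6 amino acid genes had a median log2 fold change of -0.50, and -0.32 without female replicate 3, when 5 of 6 were negative. The one-carbon genes had medians of -0.12 and -0.10, with 2 of 4 and 3 of 4 negative. None passed the test, so these are values and not calls.

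Asns, asparagine synthetase (chromosome 6: 7675169 to 7693254), had 132, 123 and 43.7 CPM in the females and 155, 161 and 195 CPM in the males. The sexes did not overlap (log2 fold change -0.69 ± 0.31, edgeR adjusted p = 0.999; -0.40 without female replicate 3). Psat1 encodes phosphoserine aminotransferase, the middle step of serine synthesis (chromosome 19: 15904678 to 15947337). It had 245, 176 and 105 CPM in the females and 258, 269 and 267 CPM in the males, again with no overlap (-0.50 ± 0.21; -0.32 without that library). Its adjusted p was 0.999 with edgeR and 0.0526 with limma-voom and quality weights, the lowest of any member in any alternative. The steps on either side of it had other patterns: Phgdh, the first step, had 10.3, 3.07 and 0.384 CPM in the females and 5.57, 6.31 and 5.96 CPM in the males, so that both the highest and the lowest library were female (-0.37 ± 0.82; 0.14 without female replicate 3). Psph, the last step, had 28.0, 29.6 and 22.3 CPM in the females and 30.1, 33.7 and 31.7 CPM in the males. The sexes were separated by a narrow gap that was not kept with TMM-scaled CPM (-0.13 ± 0.16, or -0.12 without female replicate 3).

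Proline synthesis runs through Aldh18a1, which makes the glutamate semialdehyde precursor (chromosome 19: 40550257 to 40588463), and Pycr1, which reduces it to proline. Aldh18a1 had 32.0, 25.6 and 15.8 CPM in the females and 35.3, 39.7 and 36.1 CPM in the males, without overlap (-0.49 ± 0.20; -0.35 without female replicate 3). Pycr1 had 8.61, 5.54 and 2.87 CPM in the females and 8.48, 8.61 and 9.57 CPM in the males (-0.57 ± 0.34; -0.33 without female replicate 3). Female replicate 1 of Pycr1 lay inside the male range.

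In the one-carbon branch, Mthfd2, the mitochondrial methylenetetrahydrofolate dehydrogenase of proliferating cells (chromosome 6: 83305691 to 83325908), had 128, 114 and 85.4 CPM in the females and 146, 157 and 146 CPM in the males. Females lay below males throughout, and the difference of -0.34 ± 0.13 had the smallest SE of the 35 (-0.29 without female replicate 3, and -0.19 once the trend in length and GC content was taken out). Shmt2, which feeds it, had 1.65, 1.36 and 2.12 CPM in the females and 1.27, 1.45 and 2.40 CPM in the males, with full overlap (0.17 ± 0.43; -0.17 without female replicate 3). Shmt1 averaged 76.5 ± 18.9 CPM over the females and 82.6 ± 8.04 CPM over the males, and Mthfd1l, the mitochondrial formyltetrahydrofolate enzyme, 88.0 ± 38.2 and 111 ± 5.89 CPM (log2 fold changes 0.01 ± 0.16 and -0.25 ± 0.24). Mthfd1l was at -0.03 without female replicate 3 and at -0.48 without female replicate 1, and Shmt1 at 0.05 and -0.10.

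Atf4 itself (chromosome 15: 80255184 to 80257541) had 162, 116 and 41.7 CPM in the females and 169, 161 and 165 CPM in the males. Males were close together, and female replicate 1 touched the lowest male (log2 fold change -0.56 ± 0.35, edgeR adjusted p = 0.999; -0.24 without female replicate 3). Its protein is controlled at translation, which RNA levels do not show. Chac1, a glutathione-degrading enzyme induced by ATF4 (chromosome 2: 119351229 to 119354381), had 1.11, 1.42 and 0.452 CPM in the females and 2.35, 2.14 and 2.01 CPM in the males. In CPM of the column total it was the stress gene without overlap (-1.03 ± 0.43, or -0.74 without female replicate 3), at a low level. With TMM-scaled CPM Atf4 and Trib3 did not overlap either, which made 3 of the 5 stress genes. Trib3, a pseudokinase that feeds back on ATF4, had 2.85, 1.40 and 0.238 CPM in the females and 2.85, 3.08 and 3.17 CPM in the males (-0.998 ± 0.68; -0.52 without female replicate 3 and -1.78 without female replicate 1), so female replicate 1 was level with the lowest male.

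Ddit4 and Sesn2 encode inhibitors of mTORC1 that ATF4 also induces. Ddit4 had 8.96, 2.58 and 0.565 CPM in the females and 7.36, 4.21 and 6.87 CPM in the males (-0.59 ± 0.76; -0.11 without female replicate 3). Sesn2 had 1.40, 1.15 and 0.339 CPM in the females and 1.46, 1.34 and 1.38 CPM in the males (-0.47 ± 0.49; -0.11 without female replicate 3). Both overlapped between the sexes. Without female replicate 1 the values were -1.83 for Ddit4 and -0.75 for Sesn2, and female replicate 2 of both genes also lay below every male.

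**Figure D4:**
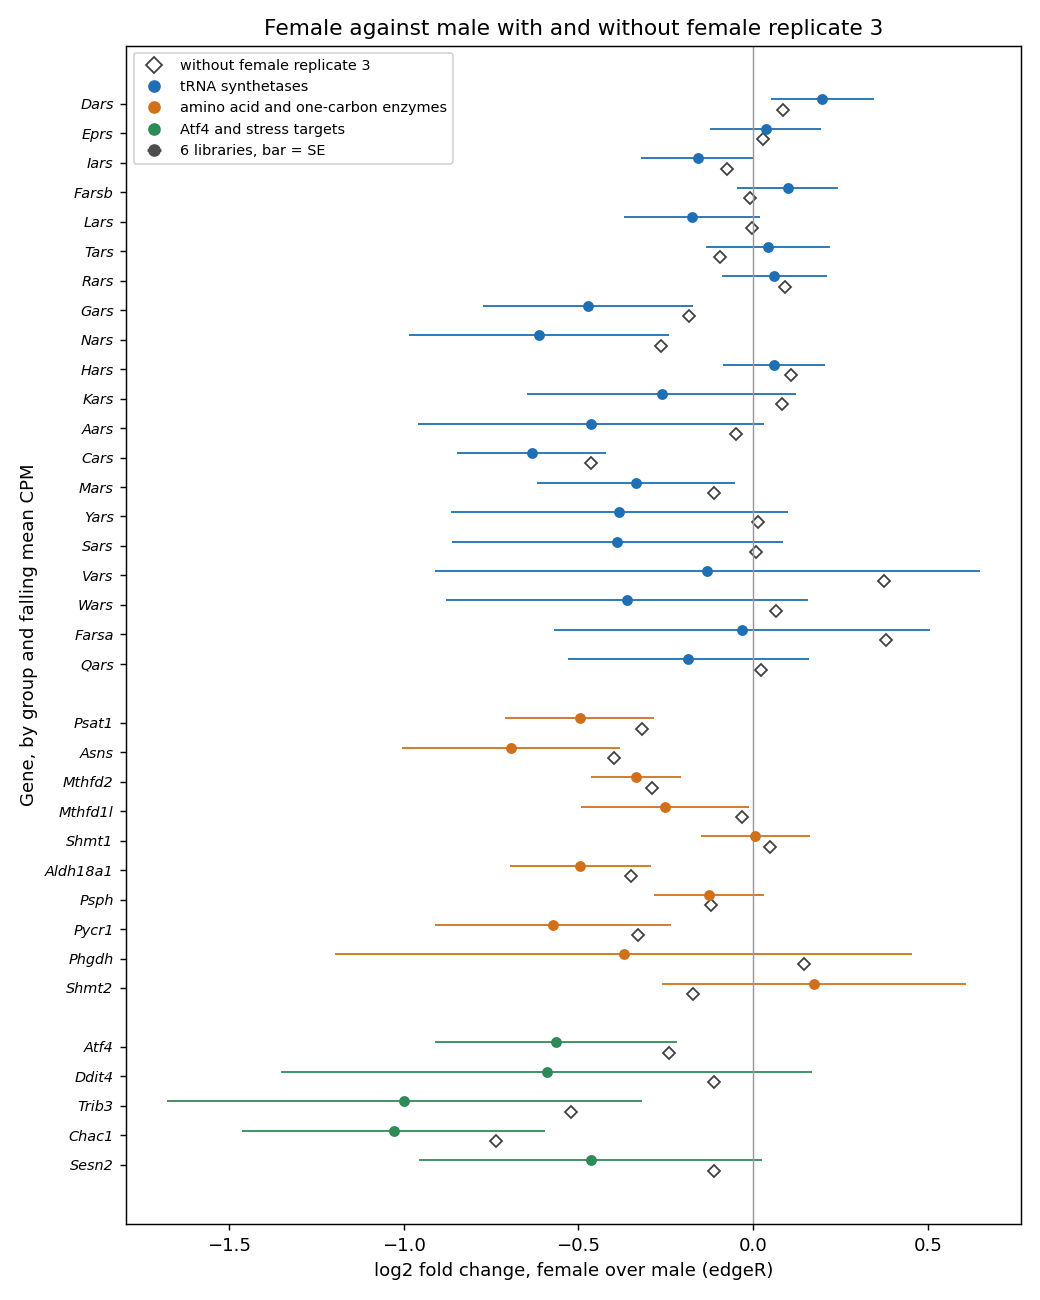
The x axis gives the log2 fold change, female over male, from edgeR for each of the 35 genes (rows); filled circles with SE bars use 6 libraries and open diamonds leave out female replicate 3. The diamonds of most synthetases sit near 0 (median 0.01), while Cars, Asns, Psat1, Mthfd2, Aldh18a1, Pycr1, Trib3 and Chac1 are between -0.29 and -0.74.

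ATF4 binds, as a dimer with C/EBP proteins, a composite element that can be written TGATGNAAN. Promoter windows from 250 bases before to 50 bases after the RefSeq start (GRCm38.p6) were searched for it on both strands. Entries were matched for 27 of the 35 genes, all but Cars, Hars, Lars, Mars, Nars, Rars, Vars and Wars. The element was present in 9 of these 27, which were 5 of 12 synthetases, 2 of 10 synthesis enzymes and 2 of 5 ATF4 and stress genes. It was present in 4.5% of all 27025 symbols and in 2.73% of the 8543 tested genes with an entry. A match is a string of letters and not a shown binding site. Sites of 8 genes are printed with the element in capitals, each on the strand on which it reads as written, to set the synthetases beside the synthesis genes.
Gars, chr6:55037960-55037988, minus strand: gcccggtgcaTGATGAAATagcgcagcca
Iars, chr13:49682126-49682154, minus strand: cgtctggaggTGATGCAATactgacagtg
Tars, chr15:11399656-11399684, plus strand: gctaaccagcTGATGCAACgggactcctg
Yars, chr4:129189896-129189924, plus strand: cgagctcagcTGATGCAACccgacgggac
Asns, chr6:7693214-7693242, minus strand: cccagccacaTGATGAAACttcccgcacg
Pycr1, chr11:120643833-120643861, minus strand: gccctgtgtaTGATGCAATgcacaaggct
Trib3, chr2:152344029-152344057, plus strand: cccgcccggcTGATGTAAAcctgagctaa
Chac1, chr2:119351038-119351066, minus strand: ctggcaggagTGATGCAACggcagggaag

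The sites in Gars, Tars and Asns ended 23, 8 and 15 bases before the start, and those in Iars, Yars and Trib3 began 7, 4 and 14 bases after it. Those in Pycr1 and Chac1 were farther off and ended 95 and 186 bases before the start. The 9 genes with the element had a median log2 fold change of -0.47 and the 18 without it -0.26, or -0.18 and -0.02 without female replicate 3. Over tested genes these medians were 0.00 with and 0.00 without the element. Among the genes with a match, Iars and Tars had log2 fold changes of -0.16 and 0.04, while Psat1 and Mthfd2 held no match in this window.

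Around these members, the genes that raise or relay the ATF4 response gave no call with edgeR. The list of kinases and phosphatase subunits of eIF2 alpha and eIF2 alpha itself had 7 tested genes, 4 of them negative, with a median of -0.02. Its smallest p values belonged to Eif2ak4, the sensor of uncharged tRNA (30.1 ± 10.8 CPM in females and 39.9 ± 2.50 in males), Eif2s1, which encodes eIF2 alpha (712 ± 50.7 and 688 ± 31.3 CPM), and Eif2ak2, the sensor of double-stranded RNA (58.7 ± 10.7 and 76.6 ± 9.32 CPM). The list of partner and downstream factors had 6 tested genes, 5 of them negative, with a median of -0.45 (-0.28 without female replicate 3, -0.79 without female replicate 1, and -0.15 with a filter of 1 CPM in 3 libraries). Atf3, a stress-induced factor, had 37.5, 14.8 and 11.02 CPM in the females and 38.8, 34.0 and 39.6 CPM in the males. Its log2 fold change was -0.76 ± 0.36 with edgeR (adjusted p = 0.999). With limma-voom and quality weights, which gave female replicate 2 the most weight, it was -1.21 (adjusted p = 0.0226). Female replicate 1 of Atf3 lay within the male range.

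Other amino acid and one-carbon genes held the gene with the smallest p among the pathway lists. Gpt2, the mitochondrial alanine aminotransferase and an ATF4 target (chromosome 8: 85492576 to 85527560), had 15.7, 13.4 and 10.4 CPM in the females and 22.7, 27.3 and 25.6 CPM in the males. All females lay below all males, with a log2 fold change of -0.82 ± 0.18 and -0.78 without female replicate 3. Its edgeR adjusted p was 0.968, while DESeq2 gave 0.0372 and limma-voom with quality weights 0.0234. In its list 7 of 8 tested genes were negative, with a median of -0.16 (0.01 without female replicate 3). The other one-carbon genes had 7 of 11 negative values and a median of -0.19 (-0.12 without female replicate 3 and -0.36 without female replicate 1), and none was called by edgeR. Mthfs, which recycles 5-formyltetrahydrofolate, had 15.2, 11.1 and 9.10 CPM in the females and 21.2, 26.7 and 17.9 CPM in the males (-0.78 ± 0.23; -0.73 without female replicate 3), with no overlap.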

How the data were processed

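Per the submitters' processing notes, the authors used kallisto and DESeq2 with GRCm38.p6; versions, transcript annotation and counting settings (strand included) were not given in the sources used here. Their deposited table holds estimated counts per gene symbol, 1 column per mouse, not scaled to a common depth. They were rounded for count tests. CPM values are of the column total; fold changes use TMM factors (0.816 for female replicate 3, 0.993 to 1.07 in the others). Females and males were compared with edgeR 4.0.16 (filterByExpr, glmQLFit, glmQLFTest, Benjamini-Hochberg at 0.05 over 12172 genes; R 4.3.3); the SE is the log2 fold change over the square root of F. Alternatives were DESeq2 1.42.0, limma-voom (limma 3.58.1) with quality weights, RLE factors, library totals, no filter, 1 CPM in 3 libraries, the replicate block, each library left out and removal of a length and GC trend (natural splines, 4 degrees of freedom each). The fit was tested on simulated data. Lengths, GC content and coordinates are from GENCODE M21 (GRCm38), promoters from RefSeq; the element searched was TGATGNAAN, and the site of 1 gene is not reported here. Exons of Aars (14.3% of bases), Psph (10.4%), Farsb (9.47%) and Hars (7.97%) overlap other genes, whose reads may not be told apart.

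The members, lists and tests were chosen with earlier results of these data known. Values in each library were given for the members with the smallest unadjusted p (6 synthetases, 5 synthesis genes, 5 others), and for the 2 highest and 2 lowest per kb in each group. From the other lists up to 3 genes with the smallest p were eligible. Vars, Phgdh and Psph were added after their values were seen, and counts without overlap in TMM-scaled CPM or without female replicate 1 or 3 were added after seeing the data. Figures were drawn with matplotlib 3.10.9.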

Additional observations from a re-analysis of the deposited data

How the results depend on the processing

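No member was called in any of the 14 alternatives, and 269 of 280 log2 fold changes of the 20 named members over these alternatives kept their direction. Over all 35 members 32 of 490 turned, 11 of them without female replicate 3. The number of called genes over the whole table was 7; it was 32 with DESeq2, 229 with limma-voom and quality weights, 11 with no filter, 11 with the length and GC trend removed, and from 4 to 12 with 1 library left out. With the replicate block it was 7, and the group medians were -0.34, -0.43 and -1.09. Same-numbered mice had correlations of 0.222, 0.0423 and 0.0695 in their deviations, and 4 of 6 libraries matched best with their own number. With 3 mice per sex this check cannot decide whether the numbers pair the mice, and the labels do not state a pairing. Leaving out 1 library gave medians from -0.52 to 0.01 for the synthetases, -0.57 to -0.23 for the synthesis enzymes and -1.05 to -0.24 for the stress genes. Counts without overlap, recomputed without female replicate 3 or 1 only, were 2 and 8, 5 and 9, and 1 and 5 (10.8% and 28.8% of all tested genes), and with TMM-scaled CPM the stress genes had 3. Among the 20 named members direction turned for Farsa with the length and GC trend removed (0.001) and with 1 library left out (-0.69 to 0.38), for Farsb with library totals (-0.047; -0.009 to 0.19 with 1 library left out), and with limma-voom for Iars (0.027), Qars (0.041) and Shmt2 (-0.32). Leaving out 1 library gave -0.34 to 0.023 for Qars and -0.17 to 0.51 for Shmt2. The cause of these changes was not tested. Trib3, Chac1, Sesn2, Shmt2 and Qars were at a few CPM, where counting error adds most.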

Other observations

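The mitochondrial synthetases, which charge tRNAs inside the organelle and are encoded by separate nuclear genes, were not lower in females by their median. Of the 17 genes listed, 16 were tested, 10 had a positive log2 fold change (female over male) and the median was 0.06, or 0.05 without female replicate 3. With library totals only, 12 of 16 were negative and the median was -0.07. None was called by edgeR. Female replicate 3 was the lowest library for 11 of the 16, and its median deviation over the list was -0.35, beside -1.03 over the cytosolic genes; the difference was not tested. Their summed level was 493, 476 and 441 CPM in the females and 494, 500.5 and 474.5 CPM in the males. The smallest p values were those of Lars2, Ears2 and Pars2. Lars2, the leucyl enzyme, had 6.54, 2.49 and 0 CPM in the females and 0.838, 0.958 and 0 CPM in the males, so that 2 libraries held no counts of it. Ears2 averaged 4.16 ± 1.55 CPM over the females and 5.69 ± 0.909 CPM over the males (mean ± SD, n = 3 each), and Pars2 3.19 ± 0.935 and 2.77 ± 1.13 CPM.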
